A study of Mus musculus with 2 samples.

Results

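The Peg3 domain is a cluster of imprinted genes on mouse chromosome 7. In the study's catalog of 128 known imprinted genes, 6 entries start between 6.0 and 7.2 Mb of chromosome 7 on the mm9 build, and these 6 are described here, namely Peg3, Usp29, Zfp264, Zim1, Zim2 and Zim3. The rule used position and no measured value. RNA-Seq reads were available from whole brain of 1 BxC embryo, an F1 of a C57BL/6J mother and a CastEi/J father, and of 1 CxB embryo, an F1 of a CastEi/J mother and a C57BL/6J father, both at E17.5 (embryonic day), with no treatment and a unique, unpooled brain behind each library. The deposited alignments list positions and no bases, so allelic counts were not computed, and the allele of each gene is the one the catalog gives.

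In an imprinted gene, the copy from one parent is active and the other is silenced by a mark laid down in the germ line. In the Peg3 domain this mark is DNA methylation of the maternal copy at a CpG-rich region from which Peg3 and Usp29 are transcribed in opposite directions, and in which binding sites of the factor YY1 are repeated. Peg3 encodes a large C2H2 zinc finger protein, a type that binds DNA through repeated cysteine and histidine fingers, and is known for high expression in the embryonic brain and for its part in growth and maternal behavior. Usp29 encodes a ubiquitin-specific protease, and Zim1, Zim2, Zim3 and Zfp264 are zinc finger gene loci or relatives of them.

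The catalog marks Peg3, Usp29 and Zfp264 as expressed from the paternal allele and Zim1, Zim2 and Zim3 as expressed from the maternal allele. If so, a paternal gene is read from the CastEi/J copy in BxC and from the C57BL/6J copy in CxB, and a maternal gene the other way around. The embryos also appeared to differ in sex. Xist had 142957 reads in BxC and 38 in CxB, and Ddx3y, Eif2s3y, Kdm5d and Uty on chromosome Y had 0 reads each in BxC and 602 to 2916 in CxB. With 1 library per cross, the cross, the strain of the active copy, the sex and the individual cannot be told apart. No test between the crosses was possible, and all intervals are exact 95% intervals that cover counting error only. PCR copies of a fragment were not marked, so true errors are larger.

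Reads were 36 bases long, and their number was 128944754 for BxC and 109719746 for CxB. A count of 0 allowed up to 0.0233 RPM for the BxC library and 0.0273 RPM for the CxB library, where RPM is reads per 1000000 reads of the library. The tissue label was checked with markers. Of 5 neuron markers, 4 were found by symbol and all 4 had at least 100 reads in each library, as did 5 of 5 progenitor markers. So did 15427 of all 37310 annotated genes, so this is a weak check. Among genes of other cells, Hbb-b1 of red blood cells stood at 187 RPM per kilobase of exon (RPKM) in BxC and 153 in CxB, and Ttr of the choroid plexus at 253 and 281. The other genes of these lists were not all high. Hba-a1 was at 83.6 and 68.6 RPKM, Hbb-bh1 had 0 reads in both libraries and Folr1 was at 1.33 and 1.35. Of endothelial genes, 3 of 3 had at least 100 reads in each library, and of microglia genes 1 of 2. Of 4 genes of tissues outside the brain, none had 100 reads in each library, but not all were absent. Myh3 had 138 reads in BxC and 96 in CxB, Actc1 51 and 85, Alb 0 and 45, and Afp 3 and 3.

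The sequence of the shared start is shown because the highest read depth of the domain lies on it. The promoter of Peg3 in RefSeq (from the GRCm38.p6 build, 250 bases before the start and 50 after) occurs once on chromosome 7 of mm9, at chr7:6683081-6683380 on the minus strand. CpG dinucleotides are in capitals.
Peg3 promoter: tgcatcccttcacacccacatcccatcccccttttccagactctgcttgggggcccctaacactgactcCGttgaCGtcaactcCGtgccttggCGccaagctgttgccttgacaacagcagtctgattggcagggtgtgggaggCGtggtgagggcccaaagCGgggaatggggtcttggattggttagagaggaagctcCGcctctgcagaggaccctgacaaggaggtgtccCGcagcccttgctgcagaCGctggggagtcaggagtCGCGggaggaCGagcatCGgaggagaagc

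This promoter held 13 CpG, more than 62.1% of 32851 RefSeq promoters of the same length, whose median was 7. The Usp29 promoter, at chr7:6683044-6683343 on the plus strand, overlapped it and held 17 CpG. The promoters of Zim1 and Zim2 held 20 and 9 CpG. For Zim3 and Zfp264 no promoter sequence was at hand.

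The YY1 motif GGCGCCAT, searched on both strands (reverse complement ATGGCGCC), was in none of the 4 promoters and in 0.846% of all RefSeq promoters. In a window of 5 kb centred between the Peg3 and Usp29 starts, it occurred 4 times, all on the minus strand and all in the first intron of Peg3, at 827, 933, 1536 and 1965 bases from the Peg3 start. The stretch with the closest pair, on the strand of Peg3 at chr7:6682187-6682406, reads as follows, with the motif in capitals.
YY1 motif stretch: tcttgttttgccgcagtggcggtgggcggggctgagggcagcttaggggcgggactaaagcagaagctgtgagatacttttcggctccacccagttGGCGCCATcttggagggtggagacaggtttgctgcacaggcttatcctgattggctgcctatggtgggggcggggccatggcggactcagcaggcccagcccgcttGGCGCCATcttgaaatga

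Of 22380 windows of 5 kb around the annotated starts of protein-coding genes, 5.46% held the motif. Those of Peg3 and Ykt6 alone held 4 or more, and that of Ykt6 held 6. The 5 kb window held 146 CpG, more than 77.8% of these windows. A match is a description of the letters and not a sign of binding in these brains.

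Of the 6 genes, 4 had at least 10 reads over their exons in each library, against 101 of the 128 catalog entries. Zim3 is among the 4 only through bases it shares with Usp29, and without these the number was 3. Peg3 was the highest by far on the RPKM scale, followed by Usp29, Zim3 and Zim1 in both libraries, while Zfp264 and Zim2 lay at or near 0. Over the union of all exons in the domain, Peg3 had 77.3% of the reads in BxC and 76.4% in CxB.

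**Figure D1:**
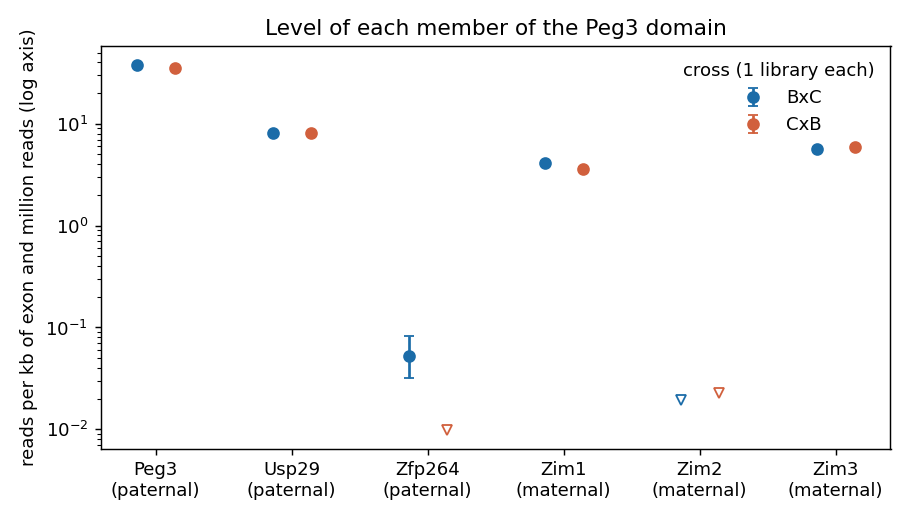
Level of each gene in RPKM on a log axis, with 1 point per library (BxC blue, CxB orange), exact Poisson 95% intervals as bars, and open triangles at the limit that a count of 0 allows. Peg3 sits at 38.0 and 35.3, Usp29 at 8.12 and 8.15, and Zim2 at 0 in both libraries.

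Peg3 lies on the minus strand at chr7:6658671-6683130, with 9 exons. It had 32440 reads in BxC and 25630 in CxB. Its level was 38.0 RPKM in BxC, with a 95% interval of 37.6 to 38.4, and 35.3 RPKM in CxB, with one of 34.8 to 35.7. Over the exons of the annotated gene, which include a retained intron, it was 22.1 and 20.9 RPKM. The values over the catalog exons lay above 94.4% and 93.9% of the 19839 annotated genes with at least 10 reads in each library. On this scale it ranked 18 of 128 catalog entries in BxC and 22 of 128 in CxB. The genes of other chromosomes nearest to it in log2 RPKM over the 2 libraries were Gnl1, Cdc123 and Kat5, at a distance of 0.006, 0.015 and 0.020. In the percentages and in this list, annotated genes were measured over annotated exons and Peg3 over catalog exons. Its coding sequence in the GENCODE vM1 annotation (transcript Peg3-001) translates to 1571 residues with 11 matches to the C2H2 finger pattern. That pattern has 2 to 4 residues between the cysteines, 12 between the pairs and 3 to 5 between the histidines, and at least 1 match was found in 3.61% of 22594 coding genes.

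The log2 ratio of CxB over BxC for Peg3 was -0.11 (-0.13 to -0.08). This is 1.08-fold lower in CxB and above that of 22.9% of annotated genes, so it lay well inside the spread of the transcriptome between these libraries, which ran from -0.29 at the 5th percentile to 0.28 at the 95th. None of the 4 genes with at least 100 reads in each library passed 1.5-fold, against 1.10% of 15427 annotated genes and 4.82% of 83 catalog entries.

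In read counts, the difference in Peg3 was not even along the gene. Exon 1 had 3967 reads in BxC and 2932 in CxB, a log2 ratio of -0.20 (-0.27 to -0.13). Exons 2 and 3 were lowest, at -0.46 (-0.59 to -0.33) and -0.45 (-0.55 to -0.34), and exon 4 was at -0.32 (-0.46 to -0.17). Exons 5 and 6 were at 0.18 (0.01 to 0.36) and 0.20 (-0.04 to 0.44), and exons 7 and 8 at -0.20 (-0.42 to 0.03) and -0.20 (-0.38 to -0.01). Exon 9, which holds most of the reads, was at -0.05 (-0.08 to -0.03). The values of exons 2 and 3 lay above those of 2.68% and 2.88% of 77541 annotated exons with at least 100 reads in each library, and the middle 90% of those exons ran from -0.39 to 0.39. For 20631 exons of 500 to 2500 reads per library, a depth that exons 2 to 5 of Peg3 share, the middle 90% was narrower, -0.31 to 0.31. Exons 2 and 3 lay below this range too. Exon 4, at -0.32, was just below it with an interval that reached inside, and exon 5 lay inside. All these exon ratios include repeated reads at a position. By distinct positions, exon 1 had 254 in BxC and 221 in CxB, and exon 2 had 174 and 133. Exon 6 had 132 and 94, and exon 8 had 141 and 89. The libraries had 36575945 and 31155725 positions. On this scale exon 1 was slightly higher in CxB, exon 6 was lower and exon 8 was lowest. The sign and order of the exons thus change when each position is counted once. Exon 1 has 162 bases, so its 3967 and 2932 reads can fill only a limited number of positions. That limit pulls its counts of positions in the 2 libraries together. Distinct positions therefore cannot tell PCR copies from separate fragments here, and which measure is nearer the truth was not tested. Exons 2 to 4 and also exon 8 had almost all reads on one strand, as given further on, and whether this has a part in the ratios was not tested.

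**Figure D2:**
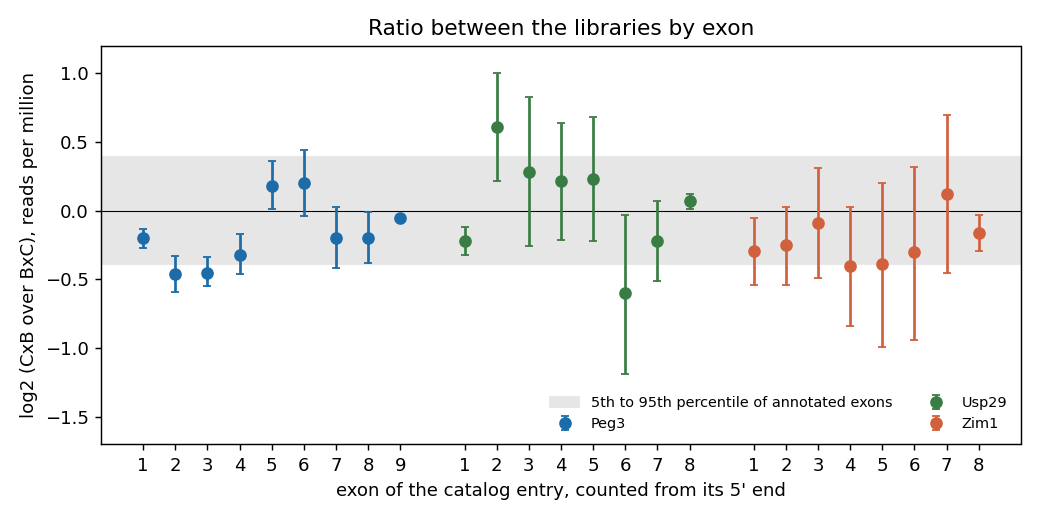
Log2 ratio of CxB over BxC in RPM for each exon of Peg3, Usp29 and Zim1 with more than 3 reads in each library, with exact 95% intervals, 1 library per cross. Repeated reads at a position are all counted. The grey band is the 5th to 95th percentile of annotated exons with at least 100 reads in each library, -0.39 to 0.39. Exons 2 and 3 of Peg3 (-0.46 and -0.45), exons 4 and 5 of Zim1 (-0.40 and -0.39, the latter at its edge) and exon 6 of Usp29 (-0.60) lie below it and exon 2 of Usp29 (0.61) above it, and those of Zim1 and Usp29 had fewer than 100 reads in a library.

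Read depth was highest at the 5' end of Peg3. The mean depth per base, scaled to a library of 100000000 reads, was 671 over exon 1 in BxC and 582 in CxB, and 245 and 202 over exon 4. Exons 6 and 7 were lowest, at 65.5 and 66.8 in BxC and at 79.7 and 60.3 in CxB. The last exon, of 5772 bases, had a mean depth of 113 and 109. When it was split into 3 parts of equal length, the 5' part had 85.4 and 72.7, the middle part 148 and 145 and the 3' part 104 and 108. Depth thus did not decline steadily towards the 3' end.

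A trough in the last exon, at about 3375 bases from the 5' end of the spliced entry, had a depth of 8.38 in BxC and 5.76 in CxB. It lies within chr7:6661813-6661992, a stretch of 180 bases that holds the starts of 71 of the 76 stretches of 36 bases in this exon that occur more than once in the genome, and reads that aligned to several places were not kept. Over the whole stretch, 109 of the starts occur once in the genome, and its mean depth was 98.4 in BxC and 102 in CxB, against 113 and 109 for the exon. The part of these repeats in the trough was not tested. GENCODE lists an intron over exactly these bases in transcript Peg3-201, and 7 reads in BxC and 14 in CxB were aligned across it. This intron starts with GA and ends with AG, and so lacks the usual GT at its start. The bases just after it repeat those at its start, so near the junction spliced and unspliced reads have the same sequence. The 7 and 14 reads are therefore not taken as a sign of splicing.

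**Figure D3:**
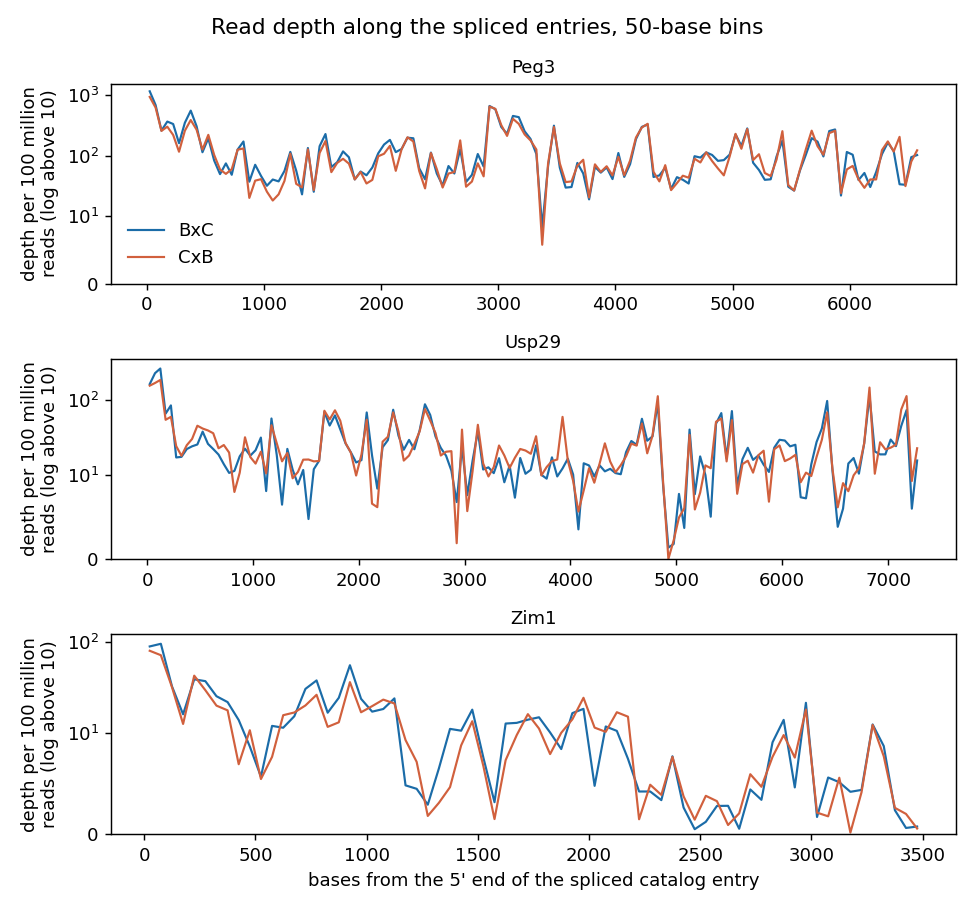
Read depth per base for a library of 100000000 reads (log axis above 10) along the spliced entries of Peg3, Usp29 and Zim1, in 50-base bins from the 5' end, with BxC in blue and CxB in orange. In each gene the depth is high at the 5' end, and most peaks and troughs fall at the same places in both libraries.

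The catalog ends Peg3 before the annotation does. GENCODE extends its last exon by 2068 bases, to chr7:6656603, and these bases had 15.8 RPKM in BxC and 16.6 in CxB from unspliced reads, against 36.2 and 33.8 over the catalog exons counted in the same way. From there to the Zim1 start the level dropped to 0.0832 and 0.0929 RPKM. The introns of Peg3 stood at 1.28 and 1.40 RPKM. The position chr7:6659876, a SNP in the last exon that the study assayed by pyrosequencing, was covered by 295 reads in BxC and 400 in CxB, at 53 and 29 distinct positions.

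All 8 junctions of the Peg3 entry were spanned by at least 10 reads in each library. Spliced reads made up 2.35% (2.19 to 2.52) of its exon reads in BxC and 2.23% (2.05 to 2.42) in CxB. The most used junction was that of exons 3 and 4, with 236 reads in BxC and 118 in CxB. The junction of exons 8 and 9 had 28 and 18. An alternative exon of the annotation between exons 6 and 7 was seen in 1 to 2 reads per junction and library. All 32 junctions seen in Peg3, Usp29 and Zim1 were compared with the genome, and 28 of their introns start with GT and end with AG. The other 4 are 2 in the last exon of Peg3 and 2 that leave exon 1 of Zim1.

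Usp29, on the plus strand at chr7:6683452-6919930, has 8 exons over 236 kb, and GENCODE vM1 lists only chr7:6913871-6916480 of its last exon. Its protein had 0 matches to the finger pattern, so the name of a zinc finger cluster does not cover it. It had 7662 reads in BxC and 6542 in CxB. Its level was 8.12 RPKM in BxC (7.94 to 8.30) and 8.15 in CxB (7.95 to 8.35), above 71.3% and 71.5% of detected genes. The log2 ratio was 0.00 (-0.04 to 0.05). The Peg3 level was above that of Usp29 in both libraries, with intervals far apart.

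Along Usp29, exon 1 was at a log2 ratio of -0.22 (-0.32 to -0.12) and the last exon at 0.07 (0.01 to 0.12). Exon 2, with 98 and 127 reads, was at 0.61 (0.22 to 1.00), and exon 6, with 73 and 41, at -0.60 (-1.19 to -0.03). By distinct positions exon 1 had 350 in BxC and 322 in CxB, and exon 2 had 58 and 52. Relative to the positions of the libraries, exon 1 was then higher in CxB, and exon 2 only slightly so. In reads, the ratio of the first exon minus that of the last was -0.29 in Usp29, -0.15 in Peg3 and -0.13 in Zim1. By distinct positions the first exon had the higher ratio in all 3 genes. In each of them the first exon is shorter than the last and holds more reads per position. The limit on positions acts more on such an exon, so the change of sign does not show that repeated reads are copies. In Usp29 the last exon had 1920 positions in BxC and 1674 in CxB. Over 8205 coding genes with at least 100 reads in both exons, the 5th and 95th percentile of the difference in reads were -0.48 and 0.48, so all 3 genes lay inside the usual range.

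Mean depth in Usp29, on the same scale, was 85.7 and 72.9 over exon 1, 10.8 to 41.0 over exons 2 to 7, and 24.1 and 25.2 over the last exon. The 5' exons are read through introns of up to 188506 bases. That intron, the second, stood at 0.369 RPKM in BxC and at 0.404 in CxB. Of its 188 whole bins of 1 kb, 187 in BxC and 188 in CxB held a read, with a median of 35.5 and 34.0 reads per bin. In the 100 kb before Zim2, 13 and 18 of 100 such bins held a read. PolyA+ RNA was selected for the libraries.

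Part of the spliced reads of Usp29 departed from the entry at exon 2, and the bases around it are printed to show the acceptors used. Reads from exon 1 entered at 3 places within 63 bases, each preceded by AG, which is in capitals. The stretch is on the plus strand at chr7:6691484-6691586.
Usp29 exon 2 acceptors: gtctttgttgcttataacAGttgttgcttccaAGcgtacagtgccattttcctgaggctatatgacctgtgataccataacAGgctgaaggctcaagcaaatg

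The last of these, at the catalog start of exon 2, was used by 10 reads in BxC and 0 in CxB. The middle one, 49 bases earlier, was used by 7 reads in BxC and 6 in CxB, and the first, 63 bases earlier, by 1 read in each. A further acceptor at chr7:6690276 had 3 reads in BxC and 0 in CxB. From exon 2, 4 reads in BxC and 1 in CxB went to an acceptor at chr7:6860997, inside the second intron of the entry. These counts are small, and no claim of a difference rests on them. The other 6 junctions of the entry had 11 to 29 reads in BxC and 8 to 28 in CxB. Skipping of exon 6 was seen in 1 read in BxC and 3 in CxB.

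Zfp264, the third gene marked as paternal, lies on the plus strand at chr7:6929957-6943795. It had 19 reads at 16 positions in BxC and 0 in CxB, none of them spliced. In BxC its level was 0.0528 RPKM (0.0318 to 0.0824), and 0.157 when each position was counted once. The 19 reads are 0.147 RPM, and 0 reads in CxB allow up to 0.0273 RPM, or 3 reads. Of the 19 reads, 9 fell on a single exon block of 212 bases. Over its whole span, introns included, 36 unspliced reads were found in BxC and 16 in CxB, or 0.0202 and 0.0105 RPKM. Only 74.9% of the 36-base stretches in its exons occur once in the genome. The 19 reads come from 1 library and have no replicate check.

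Zim1 is the maternal gene next to Peg3, on the minus strand at chr7:6628154-6649143, with 8 exons. The annotated protein has 579 residues and 12 matches to the finger pattern. It had 1864 reads in BxC and 1386 in CxB. Its level was 4.13 RPKM in BxC (3.94 to 4.32) and 3.61 in CxB (3.42 to 3.80), above 55.9% and 52.7% of detected genes. When each position was counted once it was 6.08 and 5.71 RPKM. The log2 ratio was -0.19 (-0.30 to -0.09), above that of 11.1% of annotated genes. In reads it was the lowest of the domain, but with distinct positions Zim1 was at -0.09 and Peg3 at -0.10. In its introns the ratio was -0.32 (-0.42 to -0.22).

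Zim1 had the highest share of spliced reads in the domain, 11.5% (10.1 to 13.1) in BxC and 10.9% (9.30 to 12.7) in CxB. When each position was counted once, it was 7.83% and 7.38%. This share depends on exon lengths, so it does not rank how fully the genes are spliced. In number, Peg3 had more spliced reads, 763 in BxC and 572 in CxB against 215 and 151 for Zim1. Most spliced reads of Zim1, 160 in BxC and 111 in CxB, spanned the junction of exons 1 and 2. From exon 1 to exon 3 went 4 reads in BxC and 1 in CxB. The junctions from exon 2 to exon 5 had 6 to 15 reads each per library, and no read spanned that of exons 5 and 6. The intron after exon 1 starts with GC, an infrequent form of donor site. It is printed with the last 15 bases of exon 1, on the strand of Zim1 around chr7:6649080, with the GC in capitals.
Zim1 exon 1 donor: gcgcgaggacgagagGCaagaacacgggag

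Depth in Zim1 was lower towards the 3' end. It was 103 over exon 1 in BxC and 88.0 in CxB on the scale used for Peg3, 34.6 in both over exon 3, and 10.7 and 9.46 over the last exon. When the last exon was split into 3 parts of equal length, the 3' part had 5.77 and 5.18 against 18 and 14 in the 5' part. The introns had 0.905 and 0.726 RPKM. Reads did not stop at the end of the entry. The 13036 bases between Zim1 and Zim2 had 1468 unspliced reads in BxC and 1175 in CxB. All but 1 of their starts lay within 4 kb of the end of Zim1, at 1.75 RPKM in BxC and 1.41 in CxB in the first kb, 1.38 and 1.45 in the next, 2.73 and 2.17 in the one after it and 5.52 and 5.68 in the last. Each of these lay above the level of the Zim1 introns, and the last also above the 3.37 and 3.05 RPKM of the Zim1 exons from unspliced reads. In the 9 kb farther on there were 0 read starts in BxC and 1 in CxB.

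Zim2 (minus strand, chr7:6604459-6615117) had 0 reads over its 5 exons in both libraries, which allows up to 0.0195 RPKM in BxC and 0.0229 in CxB. Its whole span held 1 read in each library. Of the 36-base stretches in its exons, 99.5% occur once in the genome, so reads from these exons could have been placed. RefSeq lists it as a long noncoding RNA.

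Zim3 (minus strand, chr7:6908396-6929373) appeared at 5.64 RPKM in BxC and 5.97 in CxB, with 2340 and 2109 reads. Nearly all of them lay where its entry overlaps the last exon of Usp29, on the other strand. This overlap is 80.2% of its exon bases, and 99.9% of its reads touched it in both libraries. Its other 637 exon bases had 2 reads in each library, or 0.0243 RPKM (0.00295 to 0.0880) and 0.0286 (0.00347 to 0.103), against 7.02 and 7.44 in the shared part. There were 0 reads across any of its 13 junctions. Of its 14 exon blocks, 2 are shorter than a read and 7 begin within 1 base of the previous one. In the exons it does not share, Usp29 stood at 8.72 RPKM in BxC and 8.53 in CxB, with a log2 ratio of -0.03 (-0.09 to 0.03).

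Whether the shared reads belong to Usp29 or Zim3 could not be read from their strand. The study describes a dUTP protocol that keeps the strand, but over coding genes that overlap no gene of the other strand, 42.9% of reads in BxC and 42.4% in CxB were on the strand of the gene, and the middle 90% of genes ran from 35.2% to 50.6% in BxC. For Zim3 the share on its own strand was 56.7% (54.6 to 58.7) in BxC and 54.8% (52.7 to 57.0) in CxB. For Usp29 it was 34.3% (33.2 to 35.4) and 36.5% (35.4 to 37.7), for Zim1 45.0% and 41.2%, and for Peg3 44.7% and 43.5%. When each position was counted once, the order of Zim3 and Usp29 turned, with 48.6% and 46.6% for Zim3 and 50.1% and 51.0% for Usp29. So antisense transcripts of the domain, such as that described across Peg3, could not be told from Peg3 itself.

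Single exons departed from this mix. In exon 1 of Peg3, 86.8% of reads in BxC and 84.8% in CxB were on the strand of Peg3. In exons 2, 3, 4 and 8 only 11%, 8.13%, 9.30% and 12.3% were in BxC, and 11%, 8.75%, 7.2% and 7.82% in CxB. The share was 43.3% (37.6 to 49.2) in BxC and 24.0% (19.2 to 29.4) in CxB in exon 6, and 45.0% (40 to 50.1) and 27.7% (22.7 to 33.3) in exon 7. These intervals take repeated reads as independent. The reads lay at 132 and 94 distinct positions in exon 6 and at 144 and 100 in exon 7, so no difference between the libraries is drawn from them. In exon 5 the share was 41.3% and 34.5%, and in the last exon 44% and 42.8%. In Zim1 the share was 89.3% and 89.7% in exon 1, 62.5% and 68.2% in exon 2 and 18.2% and 10.3% in exon 3. In exon 1 of Usp29, as the catalog gives it, the share was 14.2% (12.7 to 15.9) and 18.9% (16.9 to 21.1). In exon 6 of Usp29, with few reads, it was 34.2% (23.5 to 46.3) in BxC and 70.7% (54.5 to 83.9) in CxB.

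Around the shared start, read starts fell into narrow blocks. On the Peg3 side of the 5 kb window, 3466 of 3987 read starts in BxC were on the minus strand, or 86.9% (85.8 to 88.0), and 84.6% (83.2 to 85.9) in CxB. Between the 2 catalog starts, a gap of 321 bases, 90.4% (88.7 to 91.9) in BxC and 89.8% (87.7 to 91.7) in CxB were on the plus strand. On the Usp29 side they were again mostly on the minus strand, at 84.7% (83.0 to 86.3) and 80.9% (78.8 to 82.9). When each position was counted once, these shares were 57.9% to 68.8%.

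The single base with most read starts on the strand of Peg3 was chr7:6683102, 28 bases inside the gene, with 673 reads in BxC and 456 in CxB. For Usp29 it was chr7:6683355, which is 97 bases before the catalog start, with 339 reads in BxC and 192 in CxB. RefSeq places the start of Usp29 158 bases before that of the catalog, which leaves 163 bases between the RefSeq starts of the 2 genes, and this peak lies inside its Usp29. The gap of 321 bases held 33.3 RPKM (31.6 to 35.1) in BxC and 25.6 (23.9 to 27.3) in CxB from unspliced reads. The Peg3 exons counted in the same way had 36.2 (35.7 to 36.6) and 33.8 (33.3 to 34.2). Only reads wholly inside a stretch were counted, which lowers a short stretch more. The gap had room for 286 read starts, and the 6624 bases of the Peg3 exons for 6309. No order of the 2 in BxC is drawn from this. The log2 ratio of the gap in reads was -0.38 (-0.51 to -0.26), and those of exon 1 of Peg3 and of Usp29 were -0.20 and -0.22. By distinct positions the gap had 136 in BxC and 106 in CxB. Relative to the positions of the libraries it was still lower in CxB, by less, while both first exons were slightly higher.

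**Figure D4:**
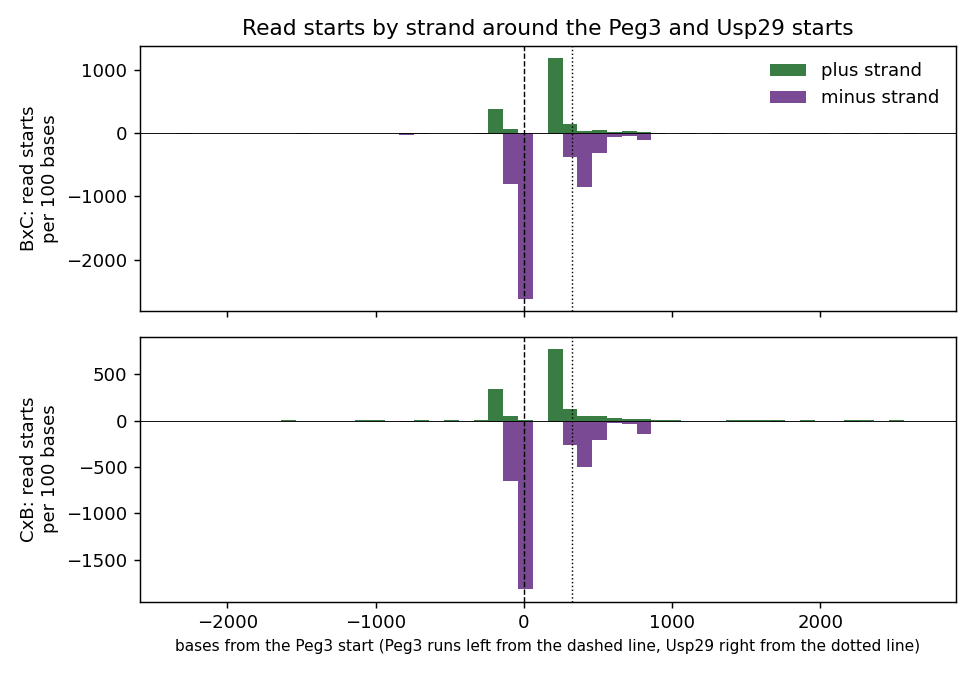
Read starts per 100 bases around the Peg3 start (dashed line at 0) and the Usp29 catalog start (dotted line), with plus-strand reads in green above 0 and minus-strand reads in purple below 0, BxC on top and CxB below, 1 library each. Most plus-strand starts lie between the lines, and minus-strand starts are piled at the Peg3 start and beyond the Usp29 start in both libraries.

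Most reads of the domain lay between the bases beyond Zim1 and the end of Usp29, where every bin of 10 kb had at least 1.47 RPM in BxC and 1.55 in CxB. Bins of this size hide a break between Zim1 and the annotated end of Peg3, where 7459 bases had the 0.0832 and 0.0929 RPKM given above. Zim2, Zfp264 and most of the bases that Zim3 does not share lie outside this range. The 100 kb before Zim2 had 0.00178 RPKM in BxC and 0.00301 in CxB, and the 100 kb after Zfp264 had 0.00372 and 0.00647, against 0.363 and 0.402 in the Usp29 introns. Between the end of Usp29 and the end of the Zim3 entry the level was 0.0271 and 0.0280 RPKM. Of the 36-base stretches in these flanks, 70.2% and 53.8% occur once in the genome, and 91.8% in the Usp29 introns. The part of this in the levels was not tested.

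**Figure D5:**
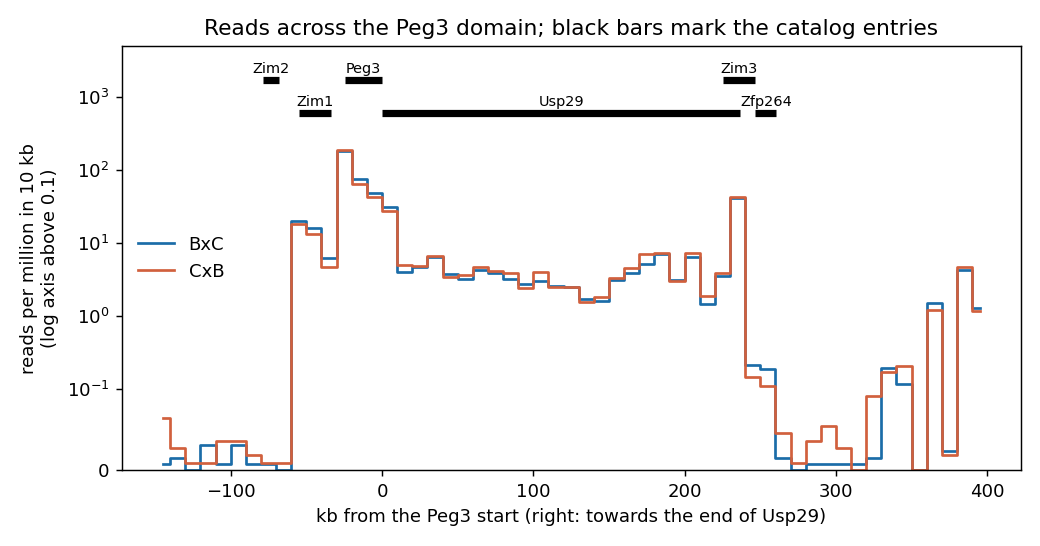
RPM in 10 kb bins (log axis above 0.1) against the distance in kb from the Peg3 start, with BxC in blue and CxB in orange and black bars for the 6 catalog entries. Most reads lie from the bases beyond Zim1 to the end of Usp29, and the bins over Zim2 lie near 0 in both libraries.

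Genes that act on or with Peg3 were looked at as lists. Of 6 partners of Peg3 in cell death, all 6 had at least 100 reads in each library and 0 passed 1.5-fold, with a median log2 ratio of 0.07. The share over all annotated genes was 1.10%, so a count of 0 in this list and the next is near the background. The largest ratio was that of Siah2, a ubiquitin ligase, at 0.32 (0.20 to 0.44), and Trp53, the p53 tumor suppressor, was at 0.01 (-0.05 to 0.07). Of 11 factors that bind or maintain imprinting control regions, 9 had 100 reads and 0 passed 1.5-fold, against the same 1.10%, with a median of 0.00. Yy1 stood at 22.3 RPKM in BxC and 25.6 in CxB, and Zfp57, which guards methylation at imprinted regions, at 32.8 and 32.9. Dnmt3l had 2 reads in each library and Dppa3 had 3 in BxC and 0 in CxB. Both are known from germ cells and early embryos. Of the 2 relatives of Usp29, Usp37 was at 2.49 and 2.83 RPKM and Usp26 had 0 reads in BxC and 4 in CxB.

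Among 37 annotated neighbours within 500 kb that are not in the catalog, 12 had at least 100 reads in each library and 0 passed 1.5-fold, near the 1.10% of all annotated genes, with a median log2 ratio of -0.04. The highest were Clcn4-2, a chloride transporter, at 24.0 RPKM in BxC and 24.1 in CxB, and Zfp444, a zinc finger gene, at 21 and 19.5. Over its catalog exons Peg3 was above both of them. The neighbours were measured over annotated exons, and on that measure Peg3 was at 22.1 and 20.9 RPKM. It was then below Clcn4-2 and above Zfp444 in both libraries. The others ran from 0.830 to 6.58 RPKM in BxC, all below the level of Usp29. They were Gm16532, Zfp28, Zfp78, Zfp418, Zfp583, Zfp667, Zfp772, Zfp773, Zfp787 and Zfp954. Aurkc, next to Zfp264, had 0 reads in both libraries.

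Over the whole catalog, entries marked as paternal had a median log2 ratio of -0.07 (36 entries) and those marked as maternal 0.03 (34 entries), with 5th to 95th percentiles of -0.41 to 0.64 and -0.24 to 0.23. Peg3 and Usp29, at -0.11 and 0.00, and Zim1, at -0.19, lay within the ranges of their own groups. The groups include these genes, and the maternal one also Zim3, whose reads are nearly all shared with Usp29. The ranges are thus a description and no independent comparison.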

How the data were processed

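Whole brain polyA+ RNA of 1 BxC and 1 CxB embryo was sequenced to 36 bases. Per the labels and the paper, the authors aligned reads with Novoalign to gene models, to splice junctions with up to 2 skipped exons and to the genome (mm9), and kept unique alignments. The paper describes masking SNPs between the strains before a realignment to RefSeq transcripts and mm9. Whether the deposited alignments are masked is not given in the sources used here. The deposited files give a whole-number count of identical reads on each line, with no normalization. That meaning was inferred from the values. 0 columns of values could not be assigned. Strand, block sizes and a catalog of imprinted genes with exons were also used.

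Reads with a block over an exon were counted on either strand with Python 3.11.15 and numpy 2.4.6, and divided by the library total (RPM) and exon length (RPKM). Levels carry exact Poisson and shares exact Clopper-Pearson 95% intervals (scipy 1.17.1). A ratio carries the interval of the share of reads from CxB, and needed at least 100 reads in each library for counts of calls. A count of 0 allowed 3 reads. Genes came from GENCODE vM1 (mm9), and 21 of 22 chromosomes held all alignments within their length (chromosome 9 was passed by 4 bases). No annotation of Zim2, Zim3 or Zfp264 was found in it by symbol, and promoters from RefSeq were matched to mm9 for 4 genes. Uniqueness is the share of 36-base stretches found once in the mm9 genome on both strands. Counting and intervals were tested on simulated data.

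The members and gene lists were chosen with earlier results of these data known. Named genes are the members, list genes where a value is given, neighbours with at least 100 reads in each library and the 3 genes of other chromosomes nearest to Peg3. Aurkc and Ykt6 were named after their values were seen. With 1 library per cross, no test was made. The alternatives were distinct positions, other scalings, sense reads, annotated exons, other read minimums and a 2 kb window. The exons of Usp29 outside Zim3, the count of genes without the bases these 2 share and the level per unique stretch were added after seeing the data.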

Additional observations from a re-analysis of the deposited data

How the results depend on the processing

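The number of genes with reads (4), the number past 1.5-fold (0) and the 20 splice junctions of the entries seen in both libraries kept their values or stayed within 1.5 times of them under all alternatives tried. Without the bases that Usp29 and Zim3 share, the number of genes with reads was 3, as Zim3 then had 2 reads in each library. The log2 ratios moved out of their counting intervals in some settings. With distinct positions Zim1 was at -0.09 and Usp29 at 0.06. With sense reads only, Zim1 was at -0.32, Peg3 at -0.15 and Usp29 at 0.10. Over annotated exons Peg3 was at -0.08 and Usp29 at 0.09. Usp29 has thus no settled sign, and Zim1 and Peg3 were lower in CxB in each of these settings. At the shared start, with distinct positions the minus-strand share on the Peg3 side was 57.9% in BxC and 63.3% in CxB, the plus-strand share between the starts 64.2% and 68.8%, and the minus-strand share on the Usp29 side 60.1% and 60.2%. With a 2 kb window the last was 86.4% in BxC. Distinct positions cap the strand whose reads are piled on few bases, so the lower shares do not show that those reads are copies. With distinct positions the level of Peg3 fell to 27.5 RPKM in BxC and 25.7 in CxB, and over its annotated exons, which include a retained intron, to 22.1 and 20.9. Usp29, Zim1 and Zim3 rose with distinct positions, and Zfp264 in BxC moved most in proportion, from 0.0528 to 0.157 RPKM. Per unique 36-base stretch Zfp264 was at 0.0787. The order of Peg3 above Usp29 held in each of these settings. Zfp264, with 19 reads, is limited by depth. No paired analysis was possible because each cross has 1 library. The cause of the moves was not tested.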
